A study of Rattus norvegicus with 31 samples.

Results

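The transcripts described here belong to 29 oligodendrocyte and myelin genes, read in rat striatum with Illumina RatRef-12 BeadChips. The genes were named from what is known of these cells, but earlier results of these data were known. The choice therefore cannot be taken as blind to the arrays. Of the 29 genes, 26 had a named probe, 1 each, and 24 were detected often enough to be tested, out of 7088 named genes tested in the series. Fa2h, Gal3st1 and Nkx2-2 had no named probe, Olig2 was detected on 0 of 31 arrays and Gjb1 on 1, and these 5 genes were not tested.

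The catecholamine toxin 6-hydroxydopamine (6-OHDA) had been injected into the medial forebrain bundle on 1 side of male Sprague-Dawley rats, and their striata were compared side by side and with those of control rats without a lesion. The groups were the lesioned (ML, 6 striata) and intact side (MNL, 6) of 6-OHDA rats given methamphetamine (METH, 2.5 mg/kg), the lesioned (SL, 6) and intact side (SNL, 5) of 6-OHDA rats given saline, and control rats given METH (MC, 4) or saline (SC, 4), all taken 2 h after that injection. Every 6-OHDA rat, those later given saline included, had earlier been tested for rotation with apomorphine and with METH. A striatum is 1 array and is called by the number in its label. Which striata belong to the same rat is not stated in the labels, and the p-values therefore reflect the spread between striata alone.

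Oligodendrocytes wrap axons of the central nervous system in myelin, a stack of membrane rich in cholesterol and galactolipid and held together by a few abundant proteins. In the striatum they lie mostly in the bundles of corticofugal fibres that cross it and, more sparsely, among the medium spiny neurons. The 24 tested genes are grouped here as structural proteins of myelin (11), enzymes of myelin lipids and their acetate supply (2), transcription factors of the lineage (3), and other genes that oligodendrocytes express at high level (8).

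All values are log2 intensities after background correction and quantile normalization, so a difference of 1 is a factor of 2 and the level of a probe cannot be set against that of another. Of the 24 genes, 23 were detected on all 31 arrays at a detection p under 0.01, and Aspa was detected on 14, at 2 or 3 arrays in each group. The labelled tissue was borne out by its markers, since all 10 medium spiny neuron markers with a probe were detected on all 31 arrays. Between 8042 and 9451 probes were detected per array (median 8635). Choroid plexus markers averaged more than 1 log2 unit above their means in 5 striata (ML 10, ML 30, SL 4, SNL 11 and MC 7). This cut was set after the data were seen, and MC 7 passed it barely, at 1.01. For several results the values without these 5 striata are given as well. The array numbers in the labels put each group in a run of its own (MNL 1 to 6, ML 7 to 12, SNL 13 to 17, SL 19 to 24, SC 25 to 28, MC 29 to 32). Whether these numbers follow the order in which the arrays were processed is not stated. If they do, no comparison of groups, of the 2 sides included, can be told apart from that order.

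None of the 24 genes passed a test of any difference among the 6 groups once the p-values of the moderated F-test in limma were adjusted over all 9732 probes tested (threshold 0.05; 0.37% of all probes passed). The lowest adjusted p was 0.0770, for Qdpr. At an unadjusted p under 0.05 there were 6 of 24, against 7.13% of all probes, and in order of p they were Qdpr, Gatm, Mobp, Mal, Opalin and Ugt8. The intensities of all 24 genes by striatum, and of these 6 by group, are plotted here.

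**Figure D1:**
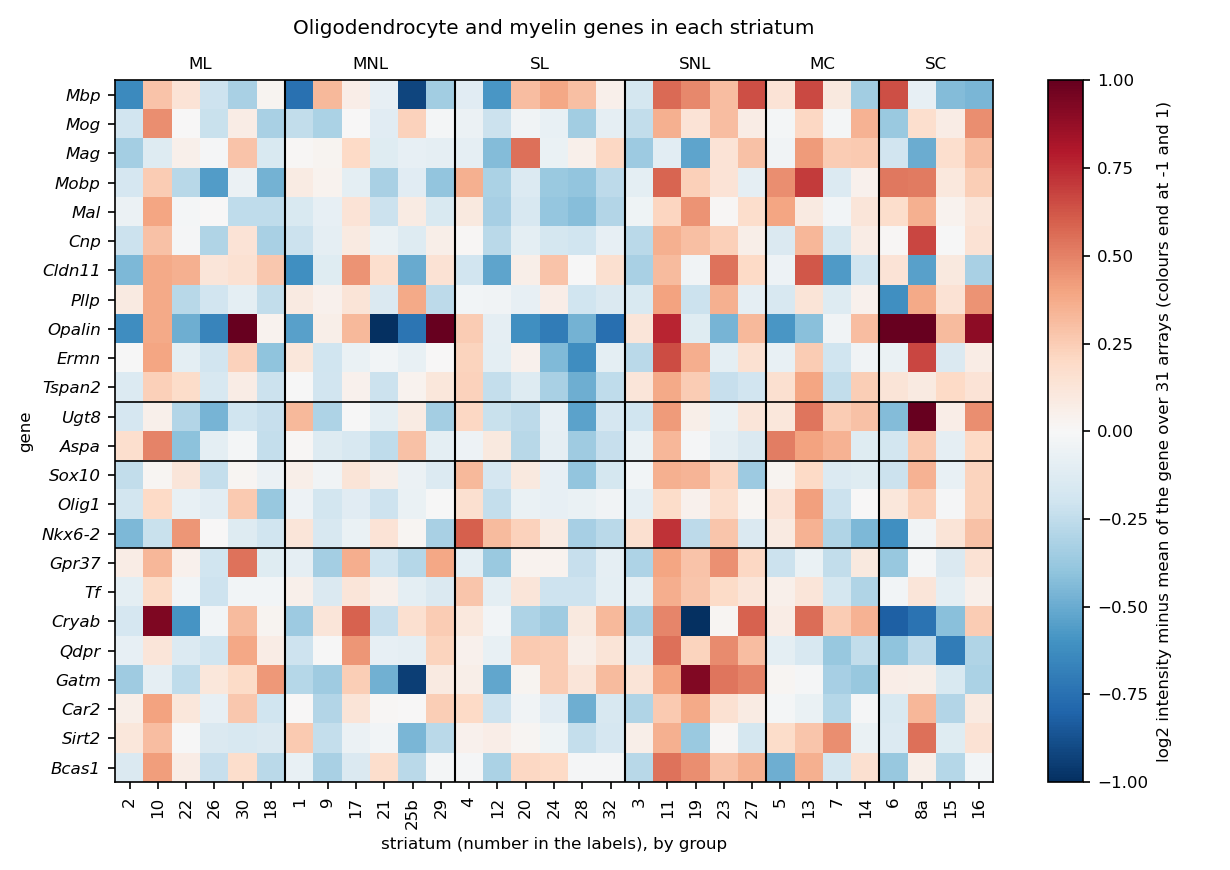
Deviation of the log2 intensity of each tested gene from its mean over 31 arrays, with genes in rows by role (structural proteins, lipid enzymes, transcription factors, other genes) and striata in columns by group. Columns ML 10, SNL 11 and MC 13 are red over most genes, and no group stands apart over the whole list.

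**Figure D2:**
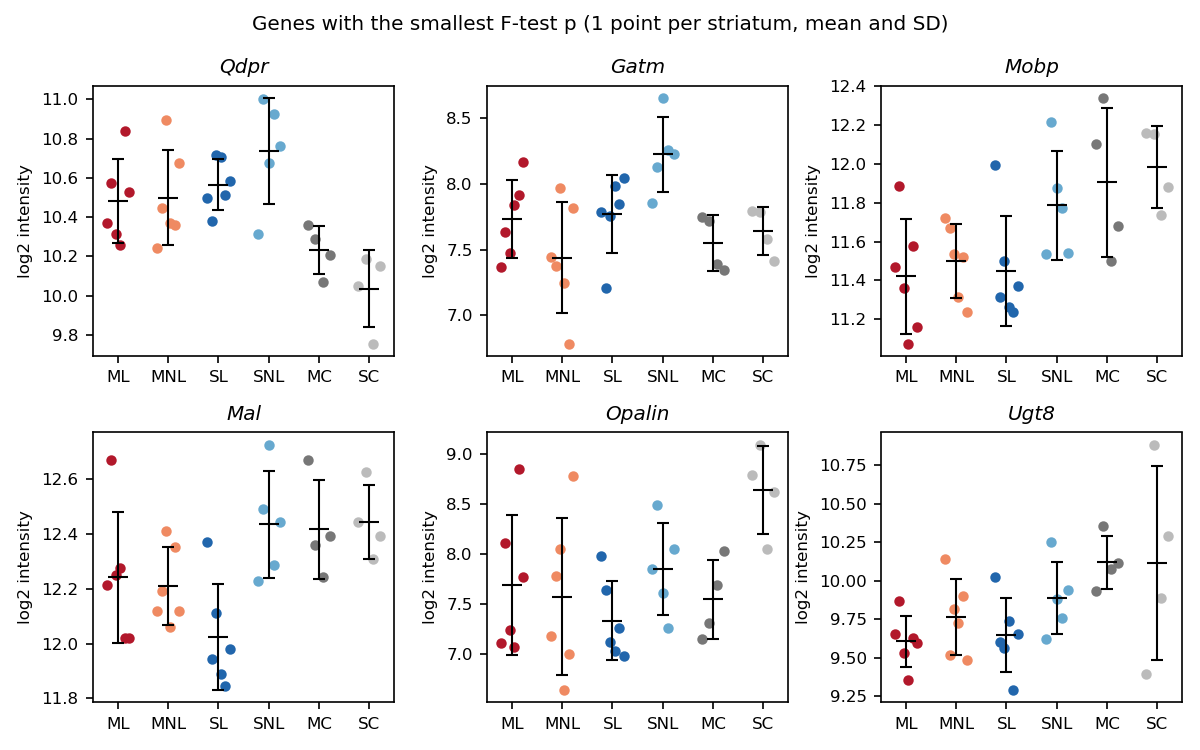
Log2 intensity of the 6 genes with the smallest F-test p, 1 point per striatum, with the mean and SD of each group. Qdpr is lower in the MC and SC striata than in most striata of 6-OHDA rats. Mobp is lower in most ML, MNL and SL striata than in most MC and SC striata.

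The sequence before the start of 4 genes is shown, those with an unadjusted F-test p under 0.01, because much of what follows turns on them. Each run is the 250 bases before the gene's start, 5′ to 3′ on the gene's strand, from RefSeq on build GRCr8. Capitals mark matches, on either strand, to ACAAAG (the core bound by SOX factors), CAGCTG (an E-box, bound by helix-loop-helix factors such as the OLIG proteins) or GGGCGG (a GC box).
Qdpr (chr14:69882526-69882775, + strand): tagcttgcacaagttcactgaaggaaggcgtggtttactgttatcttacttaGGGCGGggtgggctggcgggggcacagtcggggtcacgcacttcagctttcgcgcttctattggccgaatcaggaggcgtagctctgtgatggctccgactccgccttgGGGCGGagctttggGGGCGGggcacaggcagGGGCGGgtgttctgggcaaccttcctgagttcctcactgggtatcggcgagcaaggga
Gatm (chr3:130129094-130129343, - strand): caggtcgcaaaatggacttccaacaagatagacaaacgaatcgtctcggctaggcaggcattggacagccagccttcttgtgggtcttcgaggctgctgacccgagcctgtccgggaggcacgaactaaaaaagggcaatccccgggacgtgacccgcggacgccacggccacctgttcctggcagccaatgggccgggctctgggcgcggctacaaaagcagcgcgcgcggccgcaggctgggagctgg
Mobp (chr8:128746982-128747231, + strand): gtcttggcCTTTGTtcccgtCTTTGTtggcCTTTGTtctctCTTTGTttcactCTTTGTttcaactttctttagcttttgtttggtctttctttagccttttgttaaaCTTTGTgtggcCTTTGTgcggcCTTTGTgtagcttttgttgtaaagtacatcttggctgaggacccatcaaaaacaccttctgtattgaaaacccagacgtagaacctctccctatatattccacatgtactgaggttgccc
Mal (chr3:135341424-135341673, - strand): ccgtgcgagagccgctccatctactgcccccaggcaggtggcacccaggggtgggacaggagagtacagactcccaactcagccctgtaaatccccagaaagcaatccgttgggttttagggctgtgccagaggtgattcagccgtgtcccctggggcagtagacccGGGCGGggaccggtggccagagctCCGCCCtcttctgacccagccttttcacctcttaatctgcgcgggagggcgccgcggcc
ACAAAG was present in this window of 16.3% of 33469 promoters, CAGCTG in 12% and GGGCGG in 30.5%. The promoter table held 17 of the 24 tested genes, and 5 of these 17 had ACAAAG, 4 had CAGCTG and 7 had GGGCGG. The window of Mobp held 8 matches to ACAAAG, all of them on the strand not printed, so that they read CTTTGT here, and none to the other motifs. Qdpr had 4 and Mal 2 matches to GGGCGG, and Gatm had 0 matches to all 3. These matches describe the letters only.

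Among the structural proteins of myelin is Mobp, the myelin-associated oligodendrocyte basic protein. Its means were lower on both sides of 6-OHDA rats than in controls of the same treatment. They were 11.42 in ML and 11.50 in MNL against 11.91 in MC striata. After saline they were 11.45 in SL and 11.79 in SNL against 11.98 in SC striata. Mobp read 11.07 to 11.89 (median 11.41) in ML striata and 11.24 to 11.72 (median 11.53) in MNL striata. Mobp in SL striata read 11.24 to 11.99 (median 11.34), against 11.54, 12.22, 11.87, 11.77 and 11.54 in SNL striata. Mobp in MC striata read 12.10, 12.34, 11.50 and 11.68, and the SC striata had 12.16, 12.15, 11.74 and 11.88. In SL striata 5 of 6 lay below every SC striatum, and in ML striata 4 of 6 lay below every MC striatum; the exceptions were SL 4, ML 30 and ML 10. Mobp had a log2 fold change of -0.53 for SL minus SC (SE 0.17, limma adjusted p = 0.135) and -0.48 for ML minus MC (SE 0.17, adjusted p = 0.999), neither past the threshold. Without the 5 striata high in choroid plexus markers, a choice made after the data were seen, Mobp was called lower in both comparisons, at -0.65 for SL minus SC (limma adjusted p = 0.0327) and -0.78 for ML minus MC (adjusted p = 0.0453). In that fit 0.206% and 0.0617% of all probes passed in these comparisons, and Opalin, in SL minus SC, was the only other gene of the 24 to pass in a comparison of 2 groups. The striata left out include SL 4, ML 30 and ML 10, the exceptions above, and MC 7, the lowest MC striatum at 11.50. On the intact side the same fit gave Mobp -0.54 for MNL minus MC (limma adjusted p = 0.9999).

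Mal encodes a proteolipid of membrane rafts that is carried in compact myelin, and it had its lowest mean in SL striata. Mal read 12.02 to 12.67 (median 12.23) in ML striata and 12.06 to 12.41 (median 12.16) in MNL striata. Mal in SL striata read 11.84 to 12.37 (median 11.96), against 12.23, 12.49, 12.72, 12.29 and 12.44 in SNL striata. Mal in MC striata read 12.67, 12.36, 12.24 and 12.39, and the SC striata had 12.44, 12.63, 12.31 and 12.39. Only SL 4 among the SL striata was above 12.23, the lowest SNL striatum, and only SL 4 was above 12.31, the lowest SC striatum. Mal averaged 12.02 ± 0.19 in SL striata and 12.44 ± 0.19 in SNL striata (SD, n = 6 and 5). Mal had a log2 fold change of -0.41 for SL minus SNL (SE 0.12, limma adjusted p = 0.553) and -0.42 for SL minus SC (SE 0.12, adjusted p = 0.115). In ML minus MNL the value for Mal was 0.03 (SE 0.11). SNL 19 enters SL minus SC only through the normalization and the estimate of spread. Without it, Mal, Opalin and Qdpr were all called in SL minus SC, with limma adjusted p of 0.0499, 0.0408 and 0.0321, beside 2.62% of all probes.

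Opalin, a transmembrane glycoprotein that among brain cells is largely restricted to oligodendrocytes, was the most variable of the 24 genes, with a standard deviation within groups of 0.575. Opalin read 7.07 to 8.85 (median 7.51) in ML striata and 6.64 to 8.78 (median 7.48) in MNL striata. Opalin in SL striata read 6.98 to 7.99 (median 7.19), against 7.85, 8.49, 7.61, 7.26 and 8.05 in SNL striata. Opalin in MC striata read 7.15, 7.31, 7.69 and 8.03, and the SC striata had 8.80, 9.10, 8.05 and 8.63. The SC striata were all above the SL and MC striata, which overlapped each other. Opalin had a log2 fold change of -1.31 for SL minus SC (95% interval -2.01 to -0.61, limma adjusted p = 0.0986) and -1.10 for MC minus SC (95% interval -1.87 to -0.33, adjusted p = 0.769). For non-overlap in this direction the background was 1.63% of all probes in SL minus SC and 1.47% in MC minus SC. In SL minus SC the limma adjusted p of Opalin was 0.0427 without SC 15 (1.64% of all probes passed) and 0.0485 without the 5 striata high in choroid plexus markers.

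Mbp, the basic protein that compacts the cytoplasmic faces of myelin, had a spread within groups of 0.406. Mbp read 9.82 to 10.75 (median 10.37) in ML striata and 9.55 to 10.79 (median 10.25) in MNL striata. Mbp in SL striata read 9.88 to 10.85 (median 10.64), against 10.29, 11.03, 10.95, 10.77 and 11.11 in SNL striata. Mbp in MC striata read 10.60, 11.13, 10.56 and 10.11, and the SC striata had 11.11, 10.38, 10.03 and 10.00. The groups overlapped in every comparison. The largest difference was -0.65 for MNL minus SNL (SE 0.23, limma adjusted p = 0.839), where MNL 1 and MNL 25b were the lowest of all 31 striata.

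Cnp, the cyclic nucleotide phosphodiesterase that keeps cytoplasmic channels of myelin open, was steadier. Cnp read 11.29 to 11.91 (median 11.51) in ML striata and 11.41 to 11.71 (median 11.54) in MNL striata. Cnp in SL striata read 11.35 to 11.63 (median 11.48), against 11.35, 11.98, 11.92, 11.86 and 11.68 in SNL striata. Cnp in MC striata read 11.48, 11.95, 11.45 and 11.69, and the SC striata had 11.63, 12.29, 11.62 and 11.76. The SL striata lay close together and overlapped only the lowest SNL and SC striata. Cnp had a log2 fold change of -0.27 for SL minus SNL (SE 0.13) and -0.34 for SL minus SC (SE 0.14), with adjusted p of 0.908 and 0.207 in limma. The SL minus SC value was -0.19 without SC 8a.

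Tspan2, a tetraspanin of the oligodendrocyte membrane, was nearly constant in the SC striata. Tspan2 read 10.40 to 10.86 (median 10.59) in ML striata and 10.41 to 10.73 (median 10.63) in MNL striata. Tspan2 in SL striata read 10.13 to 10.85 (median 10.37), against 10.74, 10.99, 10.87, 10.39 and 10.43 in SNL striata. Tspan2 in MC striata read 10.78, 11.01, 10.37 and 10.86, and the SC striata had 10.75, 10.71, 10.82 and 10.75. Of the SL striata only SL 4 reached the SC values. Tspan2 had a log2 fold change of -0.34 for SL minus SC (SE 0.13, limma adjusted p = 0.201) and -0.27 for SL minus SNL (SE 0.13, adjusted p = 0.908).

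Of the other structural genes, Mog and Mag encode proteins on the outer and inner faces of the sheath, Cldn11 the tight-junction claudin of myelin, Pllp plasmolipin and Ermn a cytoskeletal protein. In SL minus SNL their log2 fold changes ran from -0.33 for Ermn (SE 0.17; -0.20 without SNL 11) to 0.15 for Mag (SE 0.16), and in ML minus MNL from -0.10 for Pllp (SE 0.15) to 0.22 for Cldn11 (SE 0.20). Their groups overlapped in all 10 comparisons.

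Ugt8 is the enzyme that makes galactosylceramide, the main glycolipid of myelin. Its means were lower on both sides of 6-OHDA rats than in controls of the same treatment, by differences that did not pass. On the intact side they were 9.76 in MNL against 10.12 in MC striata, and 9.89 in SNL against 10.11 in SC striata. Ugt8 read 9.36 to 9.87 (median 9.61) in ML striata and 9.48 to 10.14 (median 9.77) in MNL striata. Ugt8 in SL striata read 9.29 to 10.03 (median 9.63), against 9.62, 10.25, 9.88, 9.76 and 9.94 in SNL striata. Ugt8 in MC striata read 9.93, 10.35, 10.08 and 10.11, and the SC striata had 9.39, 10.88, 9.89 and 10.29. Every ML striatum lay below every MC striatum, while the SC striata were spread widely, with SC 8a the highest of all 31 striata and SC 6 below all but 2 of them. Ugt8 had a log2 fold change of -0.51 for ML minus MC (95% interval -0.89 to -0.14, limma adjusted p = 0.999) and -0.47 for SL minus SC (95% interval -0.85 to -0.09, adjusted p = 0.200). The SL minus SC value of Ugt8 was -0.21 without SC 8a and -0.71 without SC 6. The background for non-overlap in this direction in ML minus MC was 0.647% of all probes.

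Aspa, the aspartoacylase that frees acetate from N-acetylaspartate for lipid synthesis, lay near the limit of detection. Aspa read 4.85 to 5.75 (median 5.20) in ML striata and 5.00 to 5.55 (median 5.15) in MNL striata. Aspa in SL striata read 4.90 to 5.36 (median 5.10), against 5.19, 5.60, 5.25, 5.17 and 5.12 in SNL striata. Aspa in MC striata read 5.77, 5.66, 5.61 and 5.14, and the SC striata had 5.07, 5.52, 5.17 and 5.46. MC 5, MC 13 and MC 7 were among the highest striata. Aspa had a log2 fold change of -0.34 for MNL minus MC and -0.30 for ML minus MC (SE 0.15 each), and both had an adjusted p above 0.99 in limma.

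Olig1, the transcription factor needed for oligodendrocyte maturation, had overlapping values in all groups. Olig1 read 11.32 to 11.97 (median 11.61) in ML striata and 11.50 to 11.70 (median 11.61) in MNL striata. Olig1 in SL striata read 11.46 to 11.86 (median 11.64), against 11.61, 11.89, 11.75, 11.87 and 11.73 in SNL striata. Olig1 in MC striata read 11.84, 12.11, 11.49 and 11.71, and the SC striata had 11.82, 11.94, 11.69 and 11.93. The SD of Olig1 was smallest in MNL striata, at 0.08, and largest in MC striata, at 0.26. The log2 fold changes of the 3 tested factors in SL minus SNL were -0.17 for Sox10 (SE 0.13), which drives myelin gene transcription, -0.12 for Olig1 (SE 0.11) and -0.05 for Nkx6-2 (SE 0.19). In ML minus MNL the 3 factors had log2 fold changes between -0.07 and 0.06.

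Qdpr, the dihydropteridine reductase that regenerates the cofactor tetrahydrobiopterin, had the smallest F-test p of the 24 genes and its lowest values in control rats. Qdpr read 10.26 to 10.84 (median 10.45) in ML striata and 10.24 to 10.90 (median 10.41) in MNL striata. Qdpr in SL striata read 10.38 to 10.72 (median 10.55), against 10.32, 11.00, 10.68, 10.93 and 10.76 in SNL striata. Qdpr in MC striata read 10.36, 10.29, 10.07 and 10.21, and the SC striata had 10.05, 10.19, 9.76 and 10.15. Every SL striatum and every SNL striatum lay above every SC striatum; between METH-treated 6-OHDA rats and MC striata there was overlap. Qdpr averaged 10.57 ± 0.13 in SL striata and 10.04 ± 0.20 in SC striata (SD, n = 6 and 4). For non-overlap in this direction the background was 1.16% of all probes in SL minus SC and 0.36% in SNL minus SC. Qdpr had a log2 fold change of 0.53 for SL minus SC (95% interval 0.26 to 0.80, limma adjusted p = 0.0939) and 0.70 for SNL minus SC (95% interval 0.42 to 0.98, adjusted p = 0.185). Averaged over both treatments, the intact side against controls gave 0.48 for Qdpr (SE 0.10, limma adjusted p = 0.199), where 0% of all probes passed. With array weights, Qdpr was called in SL minus SC (limma adjusted p = 0.0140, beside 0.688% of all probes) and in that average (adjusted p = 0.0216, beside 0.0103%). It was also called without SNL 3 in SNL minus SC (limma adjusted p = 0.0161) and in the average (adjusted p = 0.0212), beside 0.0103% of all probes in each, and without SC 16 in SL minus SC (adjusted p = 0.0461, beside 1.97% of all probes). Against the MC striata the log2 fold changes were 0.27 for MNL and 0.25 for ML.

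Gatm, the amidinotransferase of the first step of creatine synthesis, had its highest mean in SNL striata. Gatm read 7.37 to 8.16 (median 7.74) in ML striata and 6.78 to 7.97 (median 7.41) in MNL striata. Gatm in SL striata read 7.21 to 8.04 (median 7.82), against 7.86, 8.13, 8.65, 8.26 and 8.23 in SNL striata. Gatm in MC striata read 7.75, 7.72, 7.39 and 7.35, and the SC striata had 7.79, 7.78, 7.58 and 7.41. All SNL striata lay above all SC striata, which held for 2 of the 24 genes, Gatm and Qdpr (0.36% of all probes in this direction), and only MNL 17 among the MNL striata was above the lowest SNL striatum. Gatm averaged 7.44 ± 0.42 in MNL striata and 8.23 ± 0.29 in SNL striata (SD, n = 6 and 5). Gatm had a log2 fold change of -0.79 for MNL minus SNL (95% interval -1.15 to -0.42, limma adjusted p = 0.0825), the lowest adjusted p of the 24 genes in any of the 10 comparisons of 2 groups, and 0.58 for SNL minus SC (SE 0.20, adjusted p = 0.986). The limma adjusted p of Gatm in MNL minus SNL was 0.0190 without MNL 17, 0.0430 without MNL 29, 0.0471 without SNL 3 and 0.0430 without SL 12. SL 12 enters this comparison only through the normalization and the estimate of spread. In these fits 0.113% or 0.123% of all probes passed.

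Tf, transferrin, the iron carrier that oligodendrocytes make in bulk, had the smallest spread of the 24 genes, a standard deviation within groups of 0.156. Tf read 13.66 to 14.06 (median 13.84) in ML striata and 13.73 to 13.99 (median 13.85) in MNL striata. Tf in SL striata read 13.66 to 14.14 (median 13.77), against 13.77, 14.23, 14.14, 14.06 and 13.99 in SNL striata. Tf in MC striata read 13.92, 13.99, 13.69 and 13.57, and the SC striata had 13.84, 13.99, 13.77 and 13.92. Its log2 fold changes in the 10 comparisons all lay within 0.21 of 0, and the groups overlapped throughout.

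The other genes of this group were Gpr37, a receptor of oligodendrocytes, Cryab, a small heat-shock protein, Car2, carbonic anhydrase 2, Sirt2, a deacetylase of tubulin, and Bcas1, a marker of oligodendrocytes that are forming myelin. Cryab was the widest of these, with a spread within groups of 0.45 and a log2 fold change of 0.74 for MC minus SC (SE 0.30, limma adjusted p = 0.769). Bcas1 had -0.39 for MNL minus SNL (SE 0.15) and 0.43 for SNL minus SC (SE 0.17), with adjusted p of 0.839 and 0.986. Gpr37 had -0.33 for SL minus SNL (SE 0.15) and 0.14 for ML minus MNL (SE 0.14).

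The comparison of the lesioned with the intact side asks what loss of dopamine innervation does to the striatum. In METH-treated rats, ML minus MNL, 0 of 24 genes passed the adjusted threshold (0.123% of all probes) and 0 passed an unadjusted p under 0.05 (2.21% of all probes); the median log2 fold change was 0.03, with 14 genes above 0 and 10 below (50.5% of all probes were below 0). In saline-treated rats, SL minus SNL, 0 of 24 passed (0.0822% of all probes), 7 had an unadjusted p under 0.05, all lower (2.54% of all probes were lower at that p), and 22 of 24 were below 0 (54.5% of all probes), with a median of -0.25 against -0.015 over all probes. The 7 were Gatm, Mal, Mobp, Gpr37, Cnp, Tspan2 and Tf. This count was not stable: it ran from 1, without SNL 19 or SL 12, to 11, without SNL 3, and was 1 with median scaling. The 24 genes are read from the same striata and are not independent of each other. In SL minus SNL the structural genes had a median of -0.27 and the other oligodendrocyte-rich genes of -0.23.

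The difference between these comparisons, ML minus MNL less SL minus SNL, was itself fitted: 0 of 24 genes passed (0% of all probes), the median was 0.26 (0.11 without the 5 striata high in choroid plexus markers), and the largest was 0.75 for Gatm (SE 0.24, limma adjusted p = 0.9997). Averaged over both treatments, the lesioned less the intact side gave a median of -0.09, and 0 of 24 passed (0.175% of all probes). The 95% intervals of all 24 genes in ML minus MNL, and of 21 in SL minus SNL, lay within 1.7-fold in either direction.

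**Figure D3:**
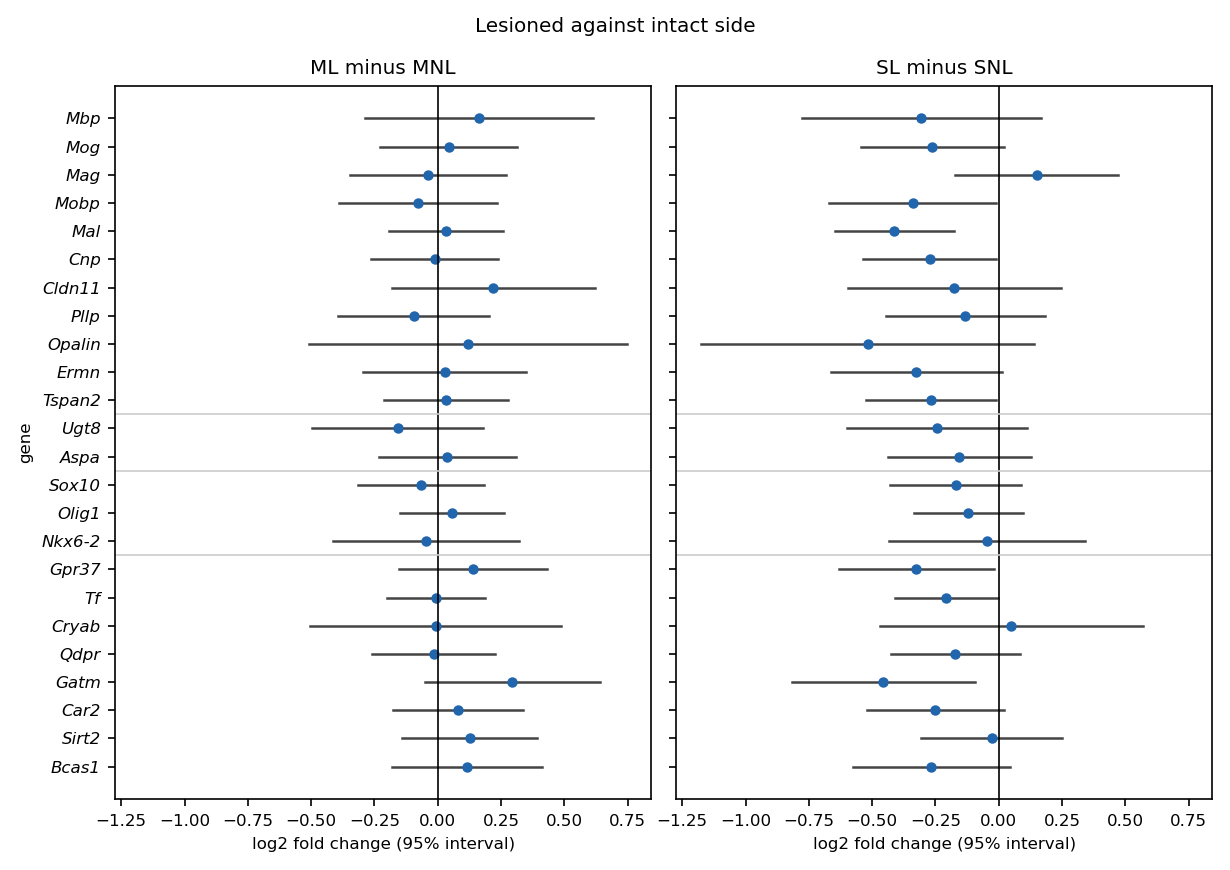
Log2 fold change of each tested gene with its 95% interval from limma, lesioned over intact side, in METH-treated rats (left) and saline-treated rats (right). Most points of the right panel lie below 0, and those of the left panel lie around 0.

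METH was compared with saline on each side and in controls. In ML minus SL, 0 of 24 genes passed (0% of all probes) and 0 had an unadjusted p under 0.05 (1.9% of all probes), with a median of 0.03. In MNL minus SNL, 0 of 24 passed (0.113% of all probes); 3 genes, Gatm, Mbp and Bcas1, were lower at an unadjusted p under 0.05 (2.54% of all probes), 22 of 24 were below 0 (53.1% of all probes), and the median was -0.20 (-0.06 by the methods' t-test, -0.09 with median scaling). Without SNL 3 the count at that p was 10. Averaged over both sides of the 6-OHDA rats, METH less saline had a median of -0.04 (0.02 with median scaling), and 0 of 24 passed (0.0719% of all probes). In this average the 2 sides of a rat count as separate striata, so the number of rats behind it is smaller than that of striata. In MC minus SC, 0 of 24 passed (0.0103% of all probes), Cryab was higher and Opalin lower at an unadjusted p under 0.05 (6.25% of all probes, both directions), and the median was -0.01. The METH difference on the intact side less that in controls had a median of -0.19 (-0.09 without MC 13), and 0 of 24 passed (0% of all probes). ML minus SNL, which joins the 2 factors, had a median of -0.16, 0 of 24 passed (0.0925% of all probes), and 5 were lower at an unadjusted p under 0.05 (2.3% of all probes). That count ran from 1, without ML 26, SNL 11 or SNL 19, to 8, without ML 10.

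SL, MNL and ML were all set against the same 5 SNL striata, so their values are not separate observations. SNL 11 was the highest SNL striatum for 16 of 24 genes and SNL 3 the lowest for 15. Without SNL 11 the median log2 fold change was -0.17 for SL minus SNL, -0.13 for MNL minus SNL and -0.09 for ML minus SNL.

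Against control rats, 0 of 24 genes passed in ML minus MC (0.0822% of all probes), MNL minus MC (0% of all probes), SL minus SC (0.164% of all probes) and SNL minus SC (0% of all probes). In SL minus SC, 6 genes were lower at an unadjusted p under 0.05 (8.74% of all probes): Mobp, Mal, Cnp, Opalin, Tspan2 and Ugt8, which are 5 structural genes and 1 lipid enzyme. Qdpr was the 1 gene higher (8.85% of all probes). The median was -0.15 over the 24 genes and -0.30 over the 11 structural genes. In ML minus MC, Mobp, Ugt8 and Aspa were lower at that p (2.02% of all probes), with a median of -0.07 over the 24 genes, and in MNL minus MC Mobp, Aspa and Sirt2 were lower (0.997% of all probes), with a median of -0.10. Without MC 13 the median was 0.01 for ML minus MC, with 1 gene at that p, and -0.05 for MNL minus MC, with 0 genes. The value of Mobp in MNL minus MC was -0.41, and -0.26 without MC 13. In SNL minus SC, Qdpr, Gatm and Bcas1 were higher (2.09% of all probes) and Opalin was lower (1.99% of all probes), and the median was 0.03 (-0.05 without SC 6, 0.11 without SC 8a). Pairs of these comparisons share their control striata.

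**Figure D4:**
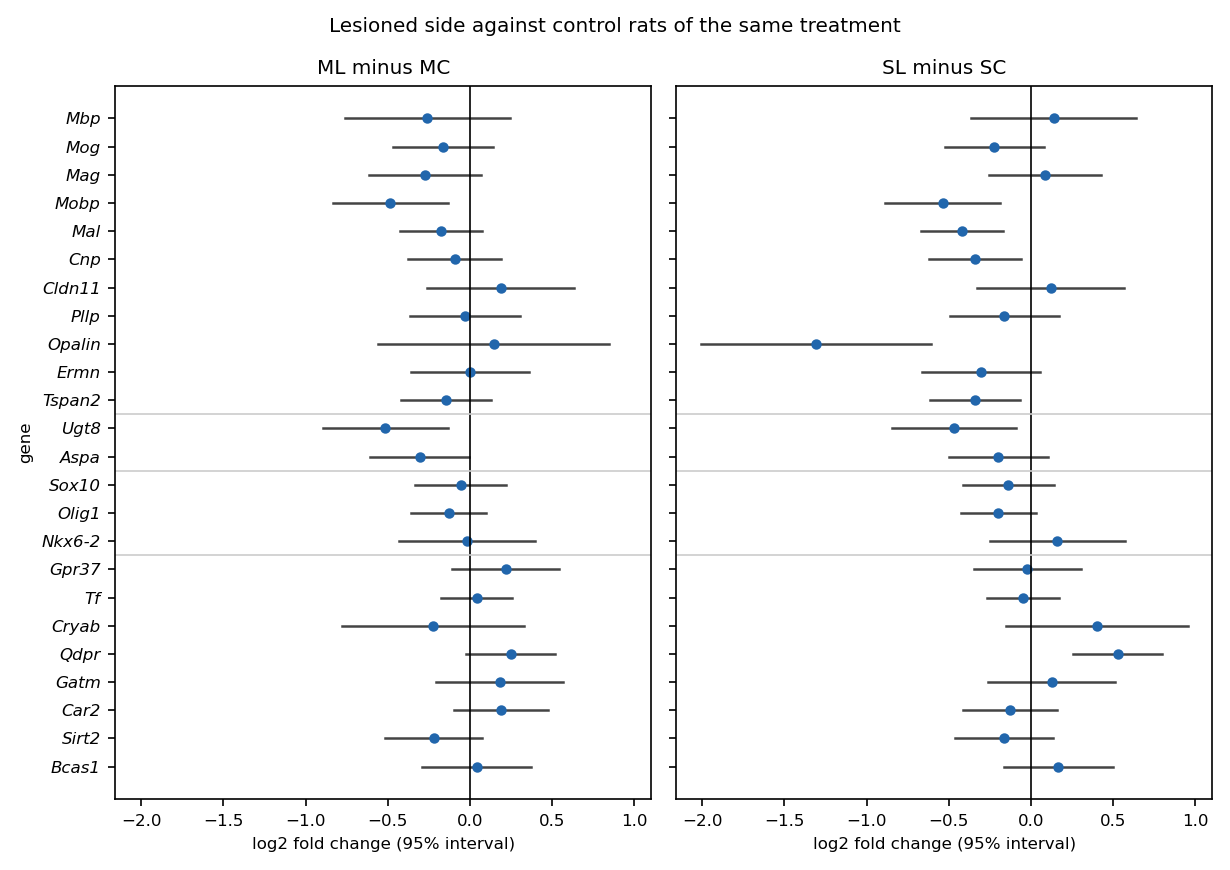
Log2 fold change of each tested gene with its 95% interval from limma, lesioned side over control rats, after METH (left) and after saline (right). Mobp and Ugt8 have intervals below 0 in both panels, Opalin lies at -1.31 in the right panel with the widest interval, and Qdpr has an interval above 0 in the right panel.

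The level of the 24 genes as a whole was compared between striata. The mean over the 24 genes of the deviation from each gene's mean ran from -0.18 to 0.27 in ML, -0.15 to 0.11 in MNL, -0.22 to 0.11 in SL, -0.13 to 0.41 in SNL, -0.09 to 0.26 in MC and -0.09 to 0.21 in SC striata, and all groups overlapped. ML 10 was the highest ML striatum for 16 of 24 genes, SL 4 the highest SL striatum for 12, MC 13 the highest MC striatum for 15 and SC 8a the highest SC striatum for 13. SL 28 was the lowest SL striatum for 12. The median log2 fold change was -0.03 for ML minus MNL without ML 10, and -0.05 for SL minus SC without SC 8a. In bulk tissue fewer oligodendrocytes and less RNA per oligodendrocyte cannot be told apart. The spread within groups had a median of 0.257 over the 24 genes and 0.217 over all probes, and 17 of 24 genes lay above that of all probes.

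Markers of other tissue were read in the same striata. Of 10 choroid plexus genes listed, 10 had a probe, 6 were tested and Kcnj13 was detected on 0 arrays. Of the 6, only Ttr was detected on all 31 arrays. Kl and Clic6 were detected on 4 arrays each, Aqp1 on 6, F5 on 9 and Otx2 on 10. Such genes can pass the detection filter through the few striata where they are high, so the list is not independent of those striata. The mean deviation of the 6 was 2.29 in ML 10, 1.93 in ML 30, 3.19 in SL 4, 1.86 in SNL 11 and 1.01 in MC 7, against at most 0.56 in every other striatum. Their summed intensity ran from 216 to 9498 in ML, 240 to 1094 in MNL, 244 to 14357 in SL, 235 to 6701 in SNL, 309 to 2705 in MC and 166 to 758 in SC striata. ML 10, SL 4 and SNL 11 were also the striata that held the highest value of their group for more of the oligodendrocyte genes than any other. ML 30 held the highest ML value for 5 of 24 genes. In MC 7 the mean over these genes was -0.09, and MC 13, highest for 15 genes, had -0.39 for the choroid plexus markers. Medium spiny neuron markers (10 tested) had mean deviations of -0.46 in ML 10, 0.02 in ML 30, -0.24 in SL 4, -0.28 in SNL 11 and 0.23 in MC 7. Cortical excitatory neuron markers (4 of 6 tested, 0 detected on all arrays) varied within every group. Their mean deviation ran from -0.54 to 0.80 in ML, -0.47 to 0.75 in MNL and -0.61 to 0.50 in SL striata. It ran from -0.40 to 0.45 in SNL, -0.58 to 0.13 in MC and -0.74 to 0.74 in SC striata. The part of these tissues in the values of the oligodendrocyte genes was not tested.

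Without the 5 striata high in choroid plexus markers, the median over the 24 genes was -0.22 for SL minus SNL, -0.08 for ML minus MNL, -0.19 for SL minus SC and -0.21 for ML minus MC. In ML minus MNL 20 of 24 genes were then below 0, against 10 of 24 with all striata (51.8% of all probes in the fit without them). In SL minus SNL 21 were below 0 (55.1% of all probes) and 5 had an unadjusted p under 0.05 (7.19% of all probes, both directions). Against controls, the counts at that p, in both directions, were 7 in ML minus MC (2.53% of all probes) and 9 in SL minus SC (18.8%). In MNL minus MC there were 5 (1.56%), with a median of -0.18. With all striata these counts were 3, 7 and 3.

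**Figure D5:**
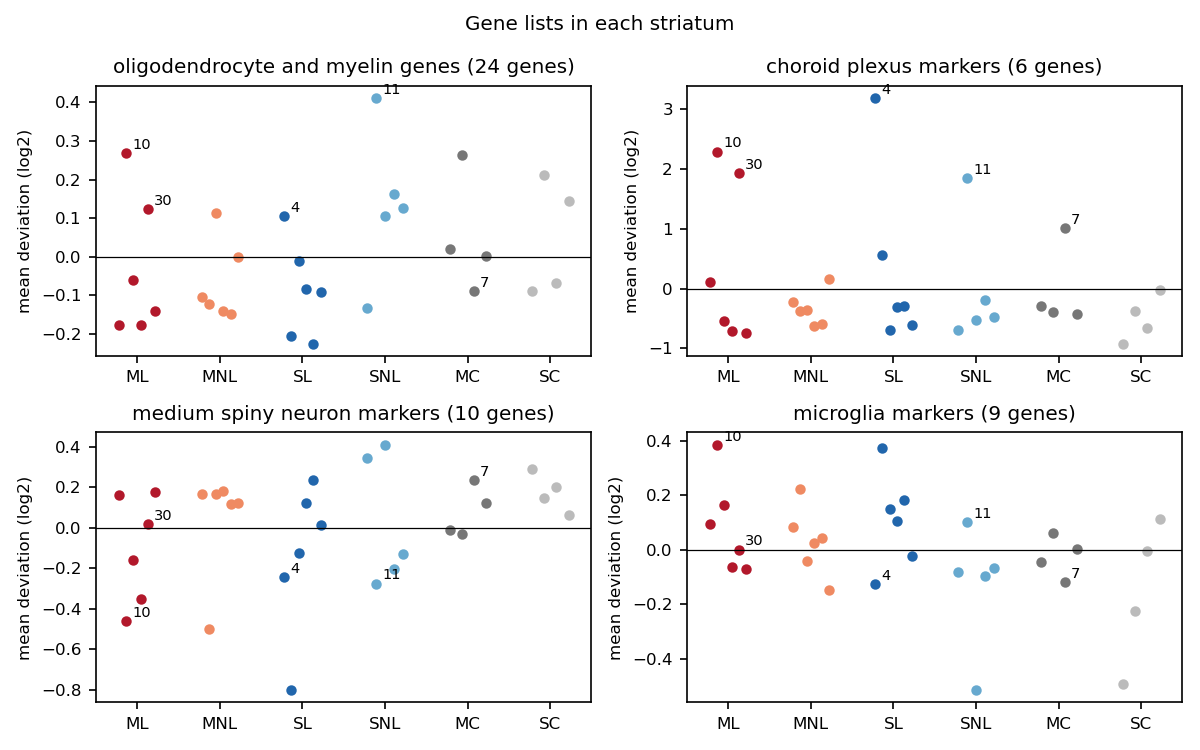
Mean deviation (log2) of the tested genes of 4 lists from their means over 31 arrays, 1 point per striatum, with the 5 striata high in choroid plexus markers numbered. ML 10, SL 4 and SNL 11 are the highest of their groups in the first panel, while MC 7 is the lowest of its group.

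Further genes of the lineage were read from lists. Of 50 more oligodendrocyte genes 29 were tested, and 0 passed in any comparison of 2 groups; the median was -0.01 for ML minus MNL, -0.10 for SL minus SNL (21 of 29 below 0), 0.03 for SL minus SC and -0.03 for ML minus MC. Gsn, the actin-severing gelsolin, had -0.60 for SL minus SC (SE 0.17, limma adjusted p = 0.112) and -0.47 for SL minus SNL (SE 0.16, adjusted p = 0.908). Ppp1r14a, an inhibitor of myosin phosphatase, had 0.93 for SL minus SC (SE 0.33, limma adjusted p = 0.163). Of the 14 precursor genes 6 were tested, with medians of 0.03 for ML minus MNL and -0.07 for SL minus SNL, and C1ql1 had 0.48 for SL minus SC (SE 0.15, limma adjusted p = 0.129).

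Cholesterol synthesis feeds the growth of myelin membrane, and 13 of its 21 listed genes were tested. Dhcr7, the last enzyme of the Kandutsch-Russell route to cholesterol, had -0.38 for SL minus SC (SE 0.09, limma adjusted p = 0.0949), and Sc5d had -0.47 (SE 0.21, adjusted p = 0.258). The 13 genes had a median of -0.19 in SL minus SC, where 6 were lower at an unadjusted p under 0.05 (8.74% of all probes) and 1, Pmvk, was higher (8.85% of all probes; log2 fold change 0.52, SE 0.22, limma adjusted p = 0.225), of -0.08 in SL minus SNL and of 0.02 in ML minus MNL.

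Other cell types were read beside these genes. Microglia markers (9 of 14 tested) had medians of 0.07 for ML minus MNL, 0.23 for SL minus SNL and 0.34 for SL minus SC; Aif1, the calcium-binding protein IBA1, had 0.51 for SL minus SNL (SE 0.19, limma adjusted p = 0.908). Their summed intensity ran from 5233 to 7275 in SL striata and from 3677 to 5404 in SNL striata. Astrocyte markers (10 of 13 tested, all detected on all arrays) had medians of -0.01 for ML minus MNL, -0.06 for SL minus SNL and -0.15 for SL minus SC. Medium spiny neuron markers had medians of -0.14 for ML minus MNL, -0.19 for SL minus SNL and -0.29 for SL minus SC, where all 10 were below 0. The 5 tested node and large-axon genes had a median of -0.16 in SL minus SNL. Of the 4 Schwann cell genes listed, only Pmp22 had a probe, with a log2 fold change of -0.14 for SL minus SNL.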

How the data were processed

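RNA from each of 31 striata was hybridised to its own array of the RatRef-12 type. The deposited intensity values were extracted by the authors with BeadStudio, background subtracted and not normalized between arrays, and each stands beside a detection p-value against the negative controls of its array, as deposited. The deposited log2 table was made by the authors in GeneSpring: on 30 arrays, 97.301% of its values lay within 0.02 of log2 of the signal (floored at 1) less a constant of the probe, and the column medians ran from -0.123 to 0.380. The values of ML 22 in that table are 1 minus the detection p, and this 1 column was not used.

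In the signal table the columns of ML 22 and SL 32 stand 4 rows off their probe IDs, and moving them back took their correlation with the median of the other arrays to 0.985 and 0.986. The first 4 probes were dropped for this reason, leaving 22519. Of 22523 probes, 13793 had 1 gene symbol and 8730 none; 13752 symbols were matched to RefSeq by gene ID, 5 by accession, and 36 were kept as in the file. Signals were background corrected with neqc in limma 3.58.1 (R 4.3.3; normexp on detection p, offset 16), quantile normalized and taken to log2. The 9732 probes that 4 or more arrays detected (p below 0.01) were fitted in 1 model of the 6 group means with eBayes (25 residual and 4.85 prior degrees of freedom), and p-values were adjusted by Benjamini-Hochberg over all 9732 probes in each comparison, with a threshold of 0.05. The scripts were tested on simulated data. The number of arrays limits the precision.

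The members and lists were chosen with earlier results of these data known. Values by striatum are given for the 10 genes with the smallest F-test p and for the gene of each role with the highest mean signal. Alternatives were median scaling, the deposited log2 table, an offset of 50, no filter, a filter on all arrays, fits on the groups compared only, array weights, leaving out the realigned arrays, leaving out each array, a replicate block, and the methods' unpaired t-test; leaving out the striata high in choroid plexus markers was added after the data were seen. A mean over probes was not applicable, since each gene had 1 probe. The chip that held each array is not given in the sources used here. Figures were drawn with matplotlib 3.10.9.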

Additional observations from a re-analysis of the deposited data

Results flagged for a closer look

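Of 78 groups of 4 or more striata examined, 6 for each of the 12 genes given by striatum and 6 for the mean over the 24 genes, 3 held 1 striatum far from the others; chance gives about 1 in 20. Mobp read 11.9914 in SL 4, above the other SL striata (11.24 to 11.50), and SL 4 also had the highest choroid plexus markers. Gatm read 7.2053 in SL 12, below the other SL striata (7.75 to 8.04), and SL 12 had the lowest medium spiny neuron markers of all 31 striata, with a mean deviation of -0.80. Aspa, near the limit of detection, read 5.5958 in SNL 11, above the other SNL striata (5.12 to 5.25). The part of the other markers in these values was not tested.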

How the results depend on the processing

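Of 665 counts of called genes under the alternatives, 648 were 0, the count in every comparison of the report. In SL minus SC the count was 1 with array weights (Qdpr) and 2 without the striata high in choroid plexus markers (Mobp and Opalin), and it ran from 0 to 3 when 1 striatum was left out, with 3 without SNL 19. In ML minus MC it was 1 without the striata high in choroid plexus markers (Mobp). In MNL minus SNL it ran from 0 to 1 when 1 striatum was left out, with Gatm called without MNL 17, MNL 29, SNL 3 or SL 12. In SNL minus SC it ran from 0 to 1, with Qdpr called without SNL 3. In the average of the intact side against controls it was 1 with array weights and ran from 0 to 1 when 1 striatum was left out, with Qdpr in both cases. The F-test called 1 gene with array weights (Qdpr, limma adjusted p = 0.00998, beside 0.617% of all probes), 1 without the striata high in choroid plexus markers (Mobp, adjusted p = 0.00993, beside 0.308%), and from 0 to 1 when 1 striatum was left out (Qdpr, without SNL 3, beside 0.401%, or MNL 17, beside 0.37%). SNL 19 and SL 12 enter the comparisons named only through the normalization and the estimate of spread. For the other changes the cause was not tested. The medians of the log2 fold changes all moved by less than the pooled SD between striata of the mean over the 24 genes, 0.153, and 39 changed sign. That SD is larger than most of the medians themselves, so it is a lenient limit. With a replicate block of neighbouring striatum numbers, a pairing the labels do not state, the block correlation was 0.348 and 0 genes were called in every comparison. By the methods' t-test 0 genes passed after adjustment, and 2 in SL minus SNL (3.28% of all probes) and 3 in SL minus SC (8.59%) had an unadjusted p under 0.05.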
